A study of Mus musculus with 12 samples.

Results

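The genes described here encode 9 proteins that carry long-chain fatty acids into cells or bind them inside: the scavenger receptor Cd36, the fatty acid transport proteins Slc27a1, Slc27a2, Slc27a4 and Slc27a5, and the fatty acid binding proteins Fabp1, Fabp2, Fabp4 and Fabp5. They were taken by gene name from the 25164 genes listed, all 9 were found, and all 9 were among the 13477 genes tested. Liver RNA was sequenced in 12 libraries, 4 for each of 3 groups of mice. HFD plus fenofibrate mice had a high-fat diet for 14 weeks, and after the first 10 weeks were given fenofibrate by gavage for 4 weeks. HFD mice had the high-fat diet for the same 14 weeks without the drug, and Control mice had a normal diet for 14 weeks. The study assigned 10 mice to each group. The labels give 4 libraries of each without saying whether a library holds RNA of 1 mouse, so p-values measure the spread between libraries, which may in part be technical. Neither strain, sex, age, drug dose nor the fat content of the diet is stated in the labels, and no group received fenofibrate on the normal diet.

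Fatty acids leave the blood through membrane proteins such as CD36 and the SLC27 family, whose members also join coenzyme A to the fatty acid and so trap it in the cell. Inside, the small binding proteins of the FABP family carry fatty acids to the endoplasmic reticulum, peroxisomes, mitochondria and the nucleus, where PPARA, the lipid-sensing nuclear receptor that fenofibrate activates, controls many genes of fatty acid use. FABP1 is the main binding protein of hepatocytes, SLC27A2 and SLC27A5 are the main SLC27 proteins of liver, and FABP4 is the binding protein of fat cells and macrophages.

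Total counts ran from 15797016 to 18514481 per library, and the 9 genes took 0.378% to 0.454% of the counts in fenofibrate libraries, 0.592% to 0.741% in HFD libraries and 0.313% to 0.375% in Control libraries. The liver label held: 11 of 12 hepatocyte markers were listed and summed to 119053 to 136800 CPM (counts scaled to a common library total) with fenofibrate, 126340 to 137102 CPM in HFD and 136626 to 149276 CPM in Control. Some libraries stood apart in transcripts of other tissues. The 11 listed striated muscle markers reached a sum of 304 CPM in the first fenofibrate library and 243 CPM in the third, and the other 10 libraries held at most 1.21 CPM. Acinar markers of the pancreas, 12 in all, reached 2183 CPM in fenofibrate library 1 and 9.13 to 14.0 CPM in the rest of that group. HFD library 1 had the lowest sums of endothelial and Kupffer cell markers of all 12 libraries. Calls of members, and those stated for genes of the further pathway lists, are given again where leaving out fenofibrate libraries 1 and 3 together or HFD library 1 ended them. Calls of single marker genes are not given again. In bulk tissue fewer cells of a type and less RNA per cell cannot be told apart.

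Promoter sequence from RefSeq (GRCm38.p6) was matched for 6 of the 9 genes, in 8 windows of 250 bases before to 50 after a transcription start. Each was searched on both strands for the letters AGGTCA, any 1 base, and AGGTCA again, the kind of direct repeat that PPARA bound to RXR can recognise, with up to 2 mismatches at its 12 fixed bases. Matches were found for Fabp1 and Cd36 and in neither Slc27a1, Slc27a2, Slc27a4 nor Fabp2. The Fabp1 match had the single substitution T4C counted from the motif's first base. It lay on the strand opposite the gene, 67 to 55 bases before the transcription start of its window. The bases before that start run to 71199878, past the gene's annotated start at 71199827 on the plus strand. The last of the bases shown for Fabp1 thus lie inside the annotated gene. The Cd36 match had G2A and T11C, and lay on the opposite strand, 63 to 51 bases before the start of its window. That window, 17835847 to 17836146, lies inside the gene, which spans 17781690 to 17888801 on the minus strand. Its start is thus not the gene's outermost one, at 17888801. Cd36 has 6 coding transcripts, and which start these livers used was not tested. Of 32851 windows of the same length, 1268 (3.86%) held a match with up to 2 mismatches and 182 (0.554%) with up to 1, so the letters are found before many genes, and a match is a description and not a binding site. The 250 bases before the start are shown for both genes and for Slc27a1, the member that rose most with fenofibrate against HFD, whose 3 windows held no match; capitals mark the match as it reads on the gene's strand.
Fabp1 (chr6:71199629-71199878, + strand): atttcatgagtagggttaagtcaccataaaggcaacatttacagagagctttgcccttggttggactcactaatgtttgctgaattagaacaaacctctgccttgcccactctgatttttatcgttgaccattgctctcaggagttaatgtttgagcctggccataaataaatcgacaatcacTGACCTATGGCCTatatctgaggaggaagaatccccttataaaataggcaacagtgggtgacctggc
Cd36 (chr5:17835897-17836146, - strand): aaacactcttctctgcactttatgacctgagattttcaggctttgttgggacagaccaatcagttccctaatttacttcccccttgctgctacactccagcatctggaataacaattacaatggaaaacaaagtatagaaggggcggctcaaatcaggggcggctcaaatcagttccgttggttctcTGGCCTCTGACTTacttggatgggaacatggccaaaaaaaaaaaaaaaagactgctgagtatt
Slc27a1 (chr8:71568621-71568870, + strand): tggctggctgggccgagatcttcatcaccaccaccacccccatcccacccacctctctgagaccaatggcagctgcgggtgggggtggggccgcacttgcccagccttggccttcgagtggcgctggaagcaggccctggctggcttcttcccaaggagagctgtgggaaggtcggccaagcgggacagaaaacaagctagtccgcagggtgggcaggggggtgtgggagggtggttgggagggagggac

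Levels of different genes were compared as TMM-scaled RPKM, which is scaled CPM per kilobase of the longest coding transcript. Fabp1, Slc27a2, Slc27a5 and Fabp2 were the 4 highest members in all 3 groups, and the other 5 were far lower. Fabp1 led with a mean of 2580 ± 257 RPKM in fenofibrate livers, 7111 ± 1641 RPKM in HFD livers and 1949 ± 712 RPKM in Control livers (SD, n = 4 each). Slc27a2 and Slc27a5 came next, at 411 ± 52.3 and 410 ± 59.2 RPKM with fenofibrate, 506 ± 40.1 and 466 ± 17.9 RPKM in HFD, and 391 ± 32.3 and 593 ± 19.96 RPKM in Control (SD, n = 4 each). Their order differed with the diet: libraries of the pair overlapped in the fenofibrate and HFD groups, whereas in Control every library had more Slc27a5 than any had Slc27a2. Fabp2 followed at 77.9 ± 16.3 RPKM with fenofibrate, 112 ± 25.0 RPKM in HFD and 47.8 ± 10.7 RPKM in Control (SD, n = 4 each), apart from its neighbours on both sides in each group.

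The 5 low members changed places between groups. With fenofibrate their order was Cd36, Slc27a1, Fabp5, Slc27a4 and Fabp4, in HFD it was Fabp5, Cd36, Fabp4, Slc27a4 and Slc27a1, and in Control it was Fabp4, Cd36, Fabp5, Slc27a4 and Slc27a1. Neighbours in these orders overlapped between libraries except Slc27a4 and Slc27a1 in HFD. Slc27a1 averaged 19.5 ± 8.31 RPKM with fenofibrate, and had the lowest mean of the members in HFD, at 5.14 ± 0.66 RPKM, and in Control, at 5.75 ± 0.69 RPKM (SD, n = 4 each).

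**Figure D1:**
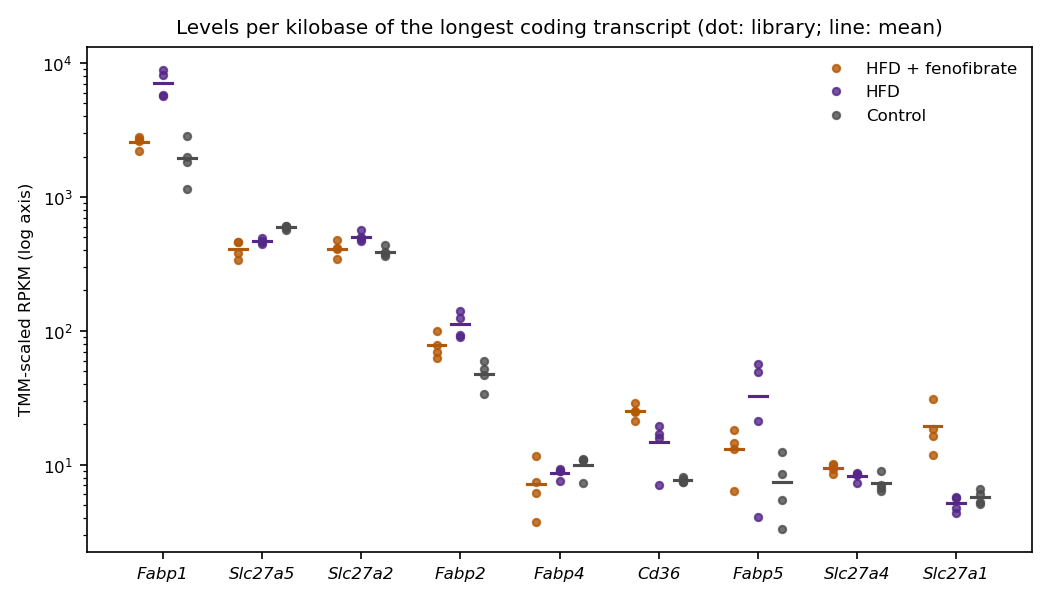
Level of each member per kilobase of its longest coding transcript (TMM-scaled RPKM, log axis), with a dot for each library and a line for the group mean, in the order HFD plus fenofibrate, HFD and Control. Fabp1, Slc27a5, Slc27a2 and Fabp2 stand above the other 5 members in every group, and Slc27a1 is lowest in HFD and Control but not with fenofibrate.

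Below, levels within a gene are TMM-scaled CPM, and a change is a log2 fold change ± SE from edgeR's quasi-likelihood test on all 12 libraries, with Benjamini-Hochberg adjustment over all genes tested. A gene is said to have risen or fallen where the adjusted p was under 0.05. With fenofibrate against HFD 2 members rose, 1 fell and 6 did not pass, where 6.89% of all genes tested rose and 6.59% fell (13.5% together). In HFD against Control 5 members rose, 1 fell and 3 did not pass, beside 6.13% of all genes that rose and 6.64% that fell (12.8% together). With fenofibrate against Control 4 members rose, 1 fell and 4 did not pass, beside 4.86% and 4.31% of all genes (9.17% together). The median log2 fold change of the 9 members was -0.27, 0.37 and 0.40 in the 3 comparisons, against 0.01, -0.02 and -0.01 over all genes tested. The 4 libraries of a group did not overlap those of the other for 3, 4 and 4 members, beside 20.7%, 17.6% and 13.1% of all genes. The first 2 comparisons share the HFD libraries, so a high value there raises the second change and lowers the first, and the members' values are set side by side for that reason.

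**Figure D2:**
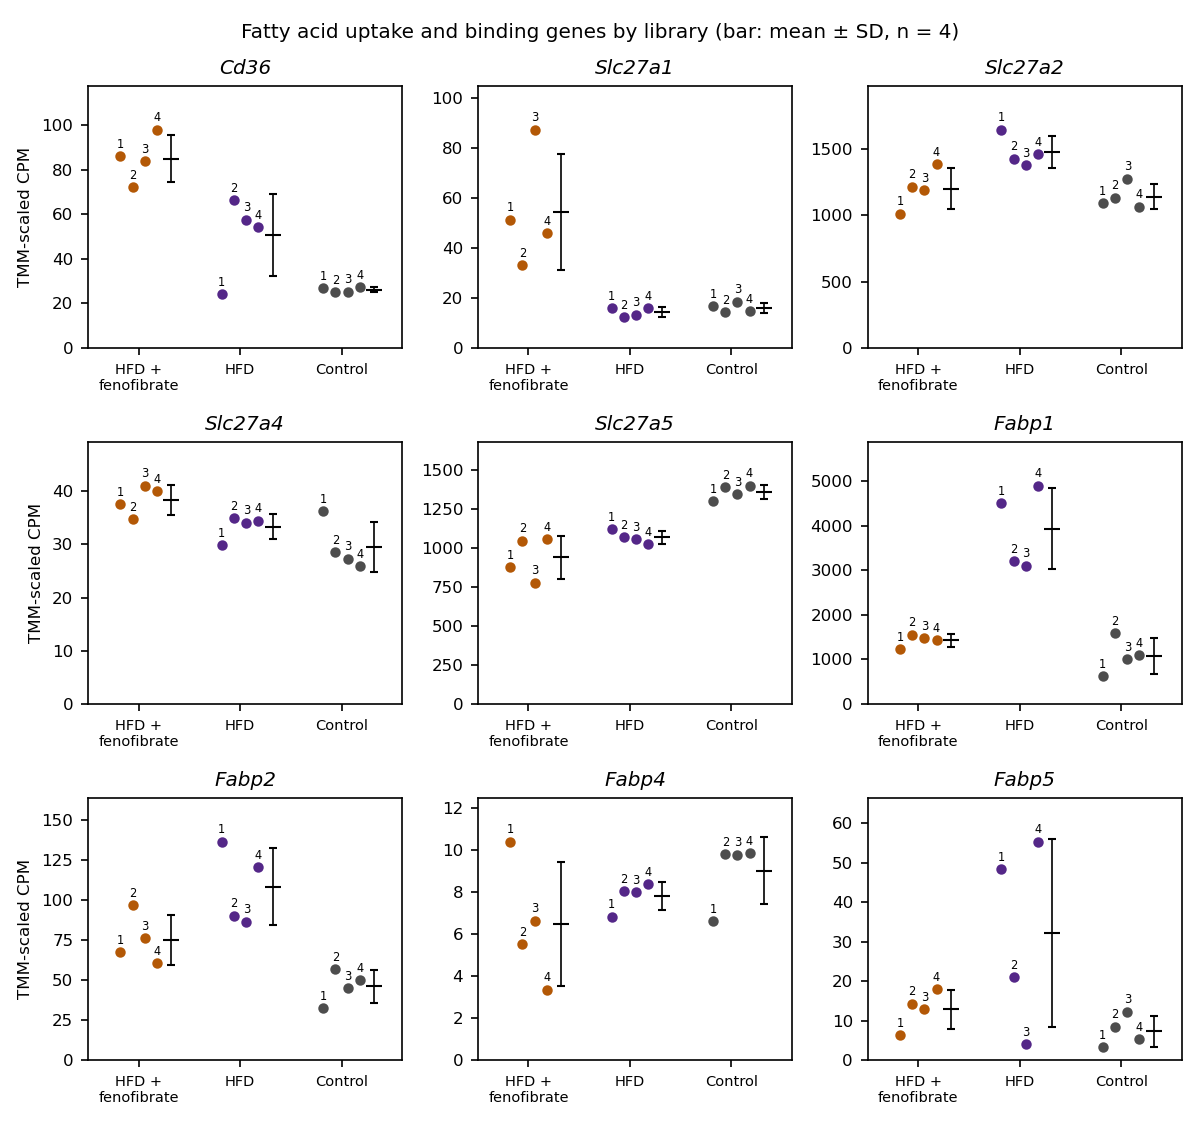
TMM-scaled CPM of each member in each library, numbered by replicate, with bars for the mean ± SD of 4 libraries, for HFD plus fenofibrate, HFD and Control (each panel has its own axis from 0). Slc27a1 is high in all 4 fenofibrate libraries, Fabp1 in all 4 HFD libraries, and HFD library 1 sits at the Control level of Cd36.

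Cd36, which takes up long-chain fatty acids and lipoproteins, was highest with fenofibrate, intermediate in HFD and lowest in Control. It had 86.0, 72.0, 83.8 and 97.9 CPM in fenofibrate libraries 1 to 4, against 24.1, 66.3, 57.5 and 54.1 CPM in HFD libraries 1 to 4 and 26.7, 25.1, 25.2 and 27.4 CPM in Control libraries 1 to 4. Every fenofibrate library exceeded every HFD library, and 3 of the 4 HFD libraries exceeded every Control library while HFD library 1 lay below them all. Cd36 (ENSMUSG00000002944, chromosome 5, 17781690 to 17888801, GRCm38) rose 1.68-fold with fenofibrate against HFD (0.75 ± 0.21, adjusted p = 0.0298), 1.94-fold in HFD against Control (0.95 ± 0.21, adjusted p = 0.00895) and 3.26-fold with fenofibrate against Control (1.70 ± 0.22, adjusted p = 0.000321). The Control libraries differed little, with a coefficient of variation of 4.32%, where the median over 7303 genes of at least 10 CPM was 12.3%. The HFD libraries had 36.3%, above the 90th percentile of those genes in that group, 19.1%.

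The low Cd36 value of HFD library 1 came with low marker sums of cells that also make CD36. All 14 endothelial markers were listed and summed to 367 to 474 CPM with fenofibrate, 223 CPM in HFD library 1, 411 to 434 CPM in the other HFD libraries and 360 to 464 CPM in Control. The 12 Kupffer cell and macrophage markers summed to 390 to 705 CPM with fenofibrate, 301 CPM in HFD library 1, 630 to 748 CPM in the other HFD libraries and 425 to 559 CPM in Control. No marker of either list was at 0 in any library. Control libraries, with endothelial sums near those of HFD libraries 2 to 4, had Cd36 at 25.1 to 27.4 CPM, and the part of these cells in the Cd36 levels was not tested. Without HFD library 1, Cd36 rose by 0.52 (adjusted p = 0.0169) with fenofibrate against HFD and by 1.18 (adjusted p = 2.58e-05) in HFD against Control. The call against HFD was lost without fenofibrate library 1 (adjusted p = 0.0629), 3 (0.0743) or 4 (0.0765), without HFD library 4 (0.0616), and with fenofibrate libraries 1 and 3 both left out (0.75, adjusted p = 0.2). The adjusted p ranged over all alternatives from 0.00573 to 0.2, and the authors' deposited table gives an adjusted p of 0.08 for this comparison and 0.000966 for HFD against Control.

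Slc27a1, the fatty acid transport protein best known from muscle and fat, rose with fenofibrate in both comparisons and did not pass with the diet. It had 51.3, 32.99, 87.3 and 46.0 CPM in fenofibrate libraries 1 to 4, against 15.8, 12.3, 13.4 and 16.1 CPM in HFD libraries and 16.8, 14.3, 18.5 and 14.7 CPM in Control libraries. The lowest fenofibrate library stood above the highest of the other 8 libraries, and the HFD and Control libraries overlapped. Slc27a1 (ENSMUSG00000031808, chromosome 8, 71568882 to 71587302) rose 3.79-fold with fenofibrate against HFD (1.92 ± 0.22, adjusted p = 0.000284) and 3.39-fold against Control (1.76 ± 0.22, adjusted p = 0.000311). It was 0.16 lower on the log2 scale in HFD than in Control, with a 95% interval from -0.65 to 0.32 (adjusted p = 0.7). By p-value it ranked 14 among the 13477 genes tested with fenofibrate against HFD.

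Since muscle makes SLC27A1, its levels were set beside the muscle markers. Acta1, the skeletal muscle actin, had 90.0, 0, 72.3 and 0 CPM in fenofibrate libraries 1 to 4, and at most 0.121 CPM in HFD and 0.0595 CPM in Control libraries. Ckm, muscle creatine kinase, was at 0 in every library except fenofibrate 1 and 3, where it had 17.5 and 10.6 CPM. Slc27a1 was highest in fenofibrate libraries 3 and 1, the 2 with muscle transcripts, and the part of muscle in those values was not tested. In fenofibrate libraries 2 and 4 the muscle sum was 0.771 and 0.540 CPM, and Slc27a1 had 32.99 and 46.0 CPM. The highest HFD library had 16.1 CPM of Slc27a1 and the highest Control library 18.5 CPM. Without fenofibrate libraries 1 and 3, Slc27a1 rose by 1.47 against HFD (adjusted p = 0.00058) and by 1.31 against Control (adjusted p = 0.000782).

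**Figure D3:**
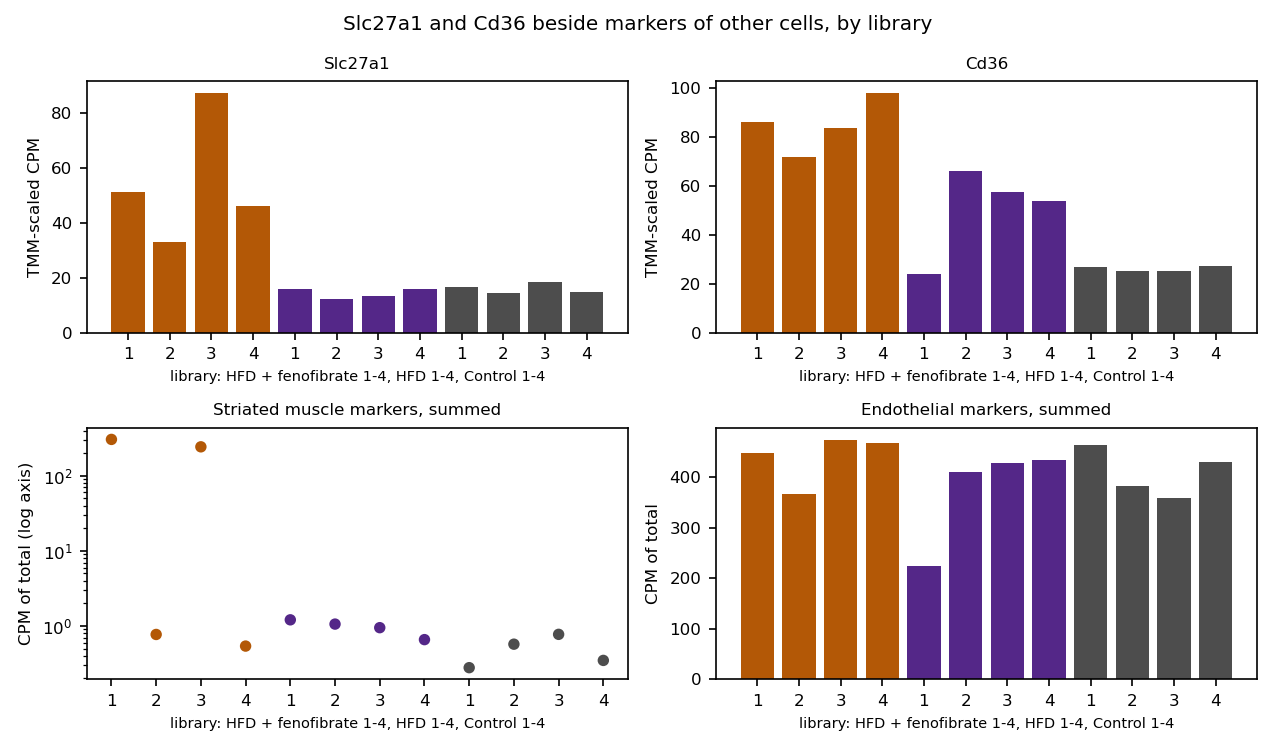
Slc27a1 beside the summed striated muscle markers (left; the lower panel has a log axis) and Cd36 beside the summed endothelial markers (right), by library, with members as TMM-scaled CPM and marker sums as CPM of the library total. The muscle sum is high only in fenofibrate libraries 1 and 3, and Slc27a1 is higher in all 4 fenofibrate libraries than in any HFD or Control library. HFD library 1 is low in both Cd36 and the endothelial sum. The part of muscle or endothelial cells in these levels was not tested.

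Slc27a2 and Slc27a5, the liver-type transport proteins, moved less and in opposite directions with the diet. SLC27A2 activates very-long-chain and branched fatty acids in peroxisomes and the endoplasmic reticulum, and SLC27A5 activates bile acids before conjugation besides taking up fatty acids. Slc27a2 (ENSMUSG00000027359, chromosome 2, 126552407 to 126588243) had 1011, 1214, 1191 and 1384 CPM in fenofibrate libraries 1 to 4, against 1644, 1425, 1377 and 1457 CPM in HFD and 1089, 1131, 1275 and 1064 CPM in Control. The HFD libraries all exceeded the Control libraries and overlapped the fenofibrate libraries only through fenofibrate library 4. Slc27a2 rose 1.29-fold in HFD against Control (0.37 ± 0.11, adjusted p = 0.0401). Its value was -0.30 ± 0.11 with fenofibrate against HFD (adjusted p = 0.0844; 0.0383 in DESeq2) and 0.07 against Control (95% interval -0.16 to 0.31, adjusted p = 0.731). The diet call was lost without HFD library 1 (0.32, adjusted p = 0.114), 2 (0.0718) or 4 (0.0804), without Control library 1 (0.0783), 2 (0.0714) or 4 (0.0996), and without the filter on low counts (0.09). With fenofibrate against HFD, Slc27a2 has an adjusted p of 0.0401 in the authors' deposited table. Slc27a2 shares 419 exon bases with the lincRNA Gm26697 on the opposite strand, which held 125 reads over all 12 libraries; the labels do not say whether counting used strand.

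Slc27a5 (ENSMUSG00000030382, chromosome 7, 12988346 to 12998192) was highest in Control. It had 874, 1046, 777 and 1055 CPM in fenofibrate libraries, against 1120, 1066, 1054 and 1021 CPM in HFD and 1298, 1388, 1343 and 1397 CPM in Control. All 8 high-fat libraries, with and without the drug, lay below the 4 Control libraries. Slc27a5 fell to 0.785 of the Control level in HFD (-0.35 ± 0.11, adjusted p = 0.0435) and to 0.691 with fenofibrate (-0.53 ± 0.11, adjusted p = 0.00625). It was -0.18 with fenofibrate against HFD (95% interval -0.41 to 0.04, adjusted p = 0.256). The HFD call against Control was near the threshold: leaving out any of the 8 HFD and Control libraries, or fenofibrate library 1, gave adjusted p of 0.0607 to 0.112, with changes of -0.37 to -0.33. The fenofibrate call against Control was lost without fenofibrate libraries 1 and 3 (-0.36, adjusted p = 0.113).

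Slc27a4, a broadly made transport protein of the endoplasmic reticulum and plasma membrane, passed in 1 comparison, that of fenofibrate with Control. It had 37.6, 34.7, 41.0 and 40.0 CPM in fenofibrate libraries, against 29.8, 34.9, 34.1 and 34.5 CPM in HFD and 36.3, 28.5, 27.3 and 25.9 CPM in Control. All groups overlapped, HFD library 1 was low for its group and Control library 1 was high. Slc27a4 (ENSMUSG00000059316, chromosome 2, 29802634 to 29817522) rose 1.3-fold with fenofibrate against Control (0.38 ± 0.11, adjusted p = 0.0404). Its value was 0.20 with fenofibrate against HFD (95% interval -0.03 to 0.43, adjusted p = 0.216) and 0.18 in HFD against Control (-0.06 to 0.41, adjusted p = 0.329). The call was lost in 9 of the 12 fits that left out 1 library (adjusted p of 0.0506 to 0.125). The 3 exceptions were fenofibrate 2, HFD 1 and Control 1. It was also lost without fenofibrate libraries 1 and 3 (0.35, adjusted p = 0.242). Of all 20 alternatives, the call held in 8.

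**Figure D4:**
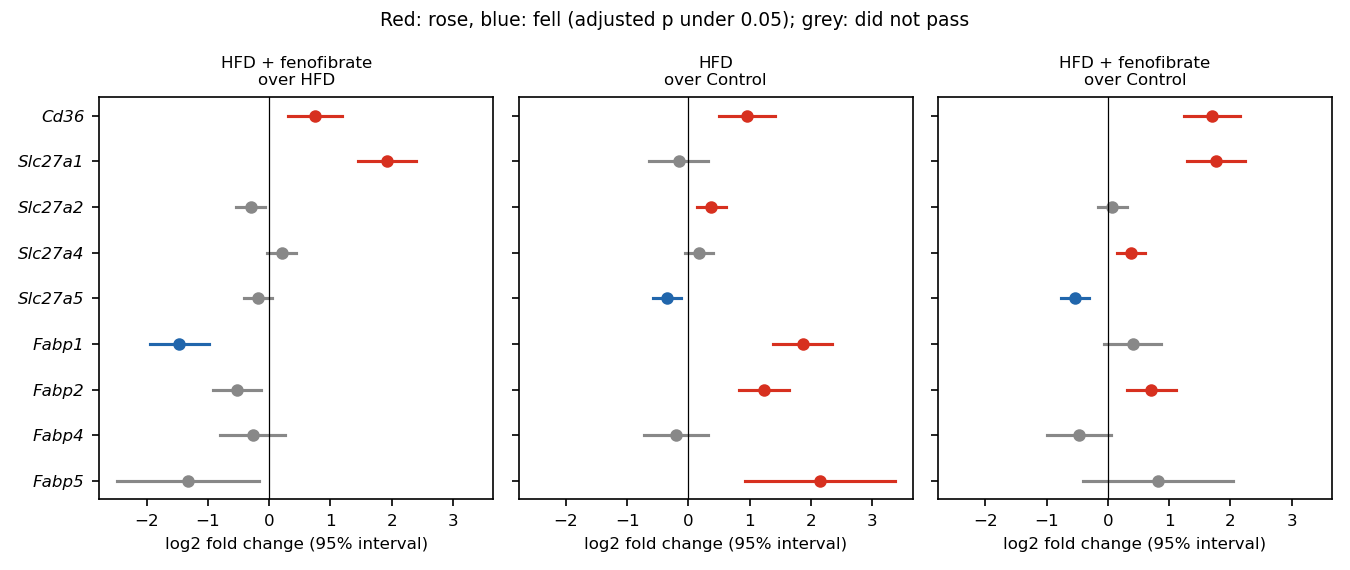
Log2 fold change of each member with its 95% interval in the 3 comparisons, from edgeR's quasi-likelihood fit (red rose, blue fell, grey did not pass an adjusted p of 0.05). With fenofibrate over HFD, Slc27a1 and Cd36 rose and Fabp1 fell. The intervals of Slc27a2, Fabp2 and Fabp5, which are not adjusted over genes, also lie below 0 there without passing. In HFD over Control, Fabp1, Fabp2, Cd36, Slc27a2 and Fabp5 rose and Slc27a5 fell.

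Fabp1, the main fatty acid binding protein of hepatocytes, was highest in HFD livers and lower in both other groups. It had 1227, 1559, 1485 and 1436 CPM in fenofibrate libraries 1 to 4, against 4509, 3213, 3107 and 4902 CPM in HFD and 629, 1585, 1001 and 1096 CPM in Control. Every HFD library stood above all other libraries, and all 4 fenofibrate libraries lay within the Control range. Fabp1 (ENSMUSG00000054422, chromosome 6, 71199827 to 71205023) fell to 0.363 of the HFD level with fenofibrate (-1.46 ± 0.22, adjusted p = 0.00161) and rose 3.65-fold in HFD against Control (1.87 ± 0.23, adjusted p = 8.48e-05). With fenofibrate it was 0.40 above Control, with a 95% interval from -0.06 to 0.87 (adjusted p = 0.273). As a share of all counts it took 0.155% ± 0.0142 with fenofibrate, 0.380% ± 0.0736 in HFD and 0.1002% ± 0.0317 in Control (SD, n = 4 each). No alternative ended either call, and the change against HFD ranged from -1.55 to -1.34.

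Fabp2, known as the intestinal binding protein, moved in the same direction with the diet, to a smaller extent. It had 67.4, 96.8, 76.2 and 60.5 CPM in fenofibrate libraries, against 137, 90.2, 86.5 and 121 CPM in HFD and 32.4, 56.9, 45.1 and 50.1 CPM in Control. The HFD and fenofibrate libraries all exceeded every Control library, and fenofibrate library 2 overlapped HFD. Fabp2 (ENSMUSG00000023057, chromosome 3, 122895072 to 122899506) rose 2.35-fold in HFD against Control (1.23 ± 0.19, adjusted p = 0.000659) and 1.63-fold with fenofibrate against Control (0.70 ± 0.19, adjusted p = 0.0291). It was -0.53 ± 0.19 with fenofibrate against HFD (adjusted p = 0.0681, with 0.0366 in DESeq2 and 0.026 without fenofibrate library 2). In that comparison Fabp2 did not pass in 15 of 20 alternatives and passed in the rest. The authors' deposited table gives Fabp2 an adjusted p of 0.0179 for fenofibrate against HFD. The rise with fenofibrate against Control was lost without fenofibrate library 2 (adjusted p = 0.0684) or 3 (0.0584), Control library 3 (0.061) or 4 (0.0521), and fenofibrate libraries 1 and 3 together (0.0964). Of 10 enterocyte markers 4 were listed. Vil1, villin, had at most 0.655 CPM and Muc2, the intestinal mucin, at most 0.223 CPM in any library. The listed markers gave 59.8 CPM in fenofibrate library 1 and 32.3 CPM in Control library 3, of which Dmbt1 made 59.1 and 31.2 CPM, and at most 0.669 CPM elsewhere. Fabp2 had 67.4 CPM in fenofibrate library 1 and 45.1 CPM in Control library 3, and the part of intestine in its levels was not tested.

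Fabp5, the epidermal-type binding protein, had the widest spread of the members in HFD and Control. It had 6.28, 14.3, 12.9 and 17.99 CPM in fenofibrate libraries, against 48.5, 21.0, 4.05 and 55.4 CPM in HFD and 3.24, 8.43, 12.2 and 5.35 CPM in Control. HFD libraries 1, 2 and 4 exceeded every other library, while HFD library 3 lay below all but 1 of the others. The highest HFD library was 13.7 times the lowest. The coefficient of variation was 38.0% with fenofibrate, under the 45.5% of Fabp4 and the 42.7% of Slc27a1 in that group, 74.3% in HFD and 53.5% in Control. HFD libraries 1 and 4 were also the highest for Fabp1 and Fabp2. Fabp5 (ENSMUSG00000027533, chromosome 3, 10012548 to 10016607) rose 4.41-fold in HFD against Control (2.14 ± 0.58, adjusted p = 0.024). It was -1.32 ± 0.55 with fenofibrate against HFD (adjusted p = 0.113), and -1.68 (adjusted p = 0.0155) without HFD library 3. In that comparison Fabp5 did not pass in 18 of 20 alternatives and passed in the rest. The diet call was lost without HFD library 1 (adjusted p = 0.0641) or 4 (0.0827), Control library 1 (0.0713) or 4 (0.0606), and with limma-voom (1.75, adjusted p = 0.147). The authors' deposited table gives an adjusted p of 0.0544 for Fabp5 in HFD against Control. A processed pseudogene copy, Fabp5l2, is annotated in GENCODE M21 and was not listed, and the labels do not say how reads shared with such copies were counted.

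Fabp4, the binding protein of fat cells, was low throughout and passed in no comparison. It had 10.4, 5.52, 6.62 and 3.35 CPM in fenofibrate libraries, against 6.82, 8.01, 7.98 and 8.37 CPM in HFD and 6.60, 9.79, 9.76 and 9.83 CPM in Control. Fenofibrate library 1 held the highest value of all 12, and without it the other 3 lay below every HFD library, and 2 of them below every Control library. Fabp4 (ENSMUSG00000062515, chromosome 3, 10204088 to 10208576) had -0.27 with fenofibrate against HFD (95% interval -0.80 to 0.26, adjusted p = 0.493), -0.20 in HFD against Control (-0.73 to 0.32, adjusted p = 0.648) and -0.47 with fenofibrate against Control (-1.0 to 0.05, adjusted p = 0.256). Without fenofibrate library 1 the last was -0.78 (adjusted p = 0.0415), and without fenofibrate libraries 1 and 3 it was -1.01 (adjusted p = 0.0318). Adipoq, the fat cell hormone adiponectin, was at 0 in 10 libraries and had 0.830 CPM in fenofibrate library 1 and 1.37 CPM in Control library 3, and Lep was at 0 in 11. All 10 adipocyte markers were listed, and their sum of 845 to 1567 CPM with fenofibrate, 2309 to 3348 CPM in HFD and 482 to 1157 CPM in Control came mostly from Car3, which hepatocytes also make. Among the 6 that were tested, Adrb3 (0.81 ± 0.16, adjusted p = 0.00626) and Lipe (0.48 ± 0.15, adjusted p = 0.0483) rose with fenofibrate against HFD. Car3 fell in that comparison (-1.43 ± 0.28, adjusted p = 0.00555), and 3 did not pass. The part of fat cells in these levels was not tested.

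Genes that supply or receive the fatty acids were described from 6 further lists. Some lists share genes, so their counts are not independent. Scp2 is in the transport and bile acid lists, Angptl4 in the delivery and PPARA target lists, and Acsl1 in the synthetase and PPARA target lists. List counts in DESeq2, with limma-voom, at an unadjusted p or without HFD library 1 are given without the share of all genes in the same fit. Of 20 other fatty acid transport and binding genes 13 were tested: 3 rose and 3 fell with fenofibrate against HFD, 4 rose and 1 fell in HFD against Control, and 2 rose with fenofibrate against Control, with medians of -0.21, 0.13 and 0.12. The acyl-CoA binding proteins Acbd5 and Dbi and the sterol carrier Scp2 each fell with fenofibrate against HFD and rose in HFD against Control, as Fabp1 did. Acbd5 had 236 ± 25.3 CPM with fenofibrate, 382 ± 68.3 CPM in HFD and 216 ± 32.3 CPM in Control (SD, n = 4 each). Its changes were -0.70 ± 0.14 with fenofibrate against HFD (adjusted p = 0.00579) and 0.82 ± 0.14 in HFD against Control (adjusted p = 0.00127). Got2, a mitochondrial aminotransferase also described as a fatty acid binding protein of the plasma membrane, rose with fenofibrate against HFD (0.43 ± 0.09, adjusted p = 0.00744) and against Control (0.37 ± 0.09, adjusted p = 0.0181). Its means were 443 ± 29.7 CPM with fenofibrate, 328 ± 15.0 CPM in HFD and 343 ± 22.3 CPM in Control (SD, n = 4 each). Without fenofibrate libraries 1 and 3, a fit in which 55 of all genes rose and 69 fell against HFD, edgeR called 0 rises and 0 falls in this list, with 2 and 3 at an unadjusted p under 0.05. Acbd5 then had -0.57 (adjusted p = 0.13) and Got2 0.38 (adjusted p = 0.134) against HFD, and 1 gene of the list rose against Control, where Got2 had 0.32 (adjusted p = 0.173). Without HFD library 1, 2 rose and 1 fell with fenofibrate against HFD and 3 rose in HFD against Control. Dbi then had -0.56 (adjusted p = 0.108) and Scp2 -0.48 (adjusted p = 0.0526) against HFD, and Scp2 had 0.38 (adjusted p = 0.0958) in HFD against Control. Fabp3, the heart and muscle binding protein, was too low to be tested. It had 11.3 and 9.64 CPM in fenofibrate libraries 1 and 3, which also held the muscle markers, and at most 0.179 CPM in the other 10.

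The acyl-CoA synthetases, which activate fatty acids after entry, had 1 rise and 1 fall among 11 tested of 14 with fenofibrate against HFD, 3 rises in HFD against Control and 3 with fenofibrate against Control (medians -0.06, 0.24 and 0.10). Acsl5 had 137 ± 16.8 CPM with fenofibrate, 267 ± 67.9 CPM in HFD and 153 ± 35.1 CPM in Control (SD, n = 4 each). It fell by 0.97 with fenofibrate against HFD (adjusted p = 0.00523) and rose by 0.80 in HFD against Control (adjusted p = 0.011). Of 14 lipoprotein lipid delivery genes 2 rose and 3 fell with fenofibrate against HFD, 3 rose and 2 fell in HFD against Control, and 4 rose and 3 fell with fenofibrate against Control (medians 0.16, -0.02 and 0.00). Lpl, lipoprotein lipase, had 85.6, 39.1, 112.6 and 42.1 CPM of the total in fenofibrate libraries, against 15.8 to 24.2 CPM in HFD and 20.2 to 34.3 CPM in Control. Fenofibrate libraries 1 and 3 were highest, as for Slc27a1, and libraries 2 and 4 exceeded every HFD and Control library. Vldlr, the very-low-density lipoprotein receptor, rose 2.23 ± 0.32 with fenofibrate against HFD (adjusted p = 0.00112), with means of 10.6 ± 2.43 CPM with the drug and 2.27 ± 1.32 CPM in HFD (SD, n = 4 each). Angptl4, which inhibits lipoprotein lipase, had 128 ± 40.9 CPM with fenofibrate, 275 ± 48.0 CPM in HFD and 282 ± 49.6 CPM in Control (SD, n = 4 each). It fell by 1.11 with fenofibrate against HFD (adjusted p = 0.00486). Without fenofibrate libraries 1 and 3, edgeR called 2 rises and 0 falls (2 unadjusted) against HFD in this list, and 0 rises and 0 falls among the synthetases (1 and 1 unadjusted). Angptl4 then had -0.78 (adjusted p = 0.0721) and Acsl5 -0.82 (adjusted p = 0.124) against HFD. Against Control, 2 delivery genes rose and 2 fell in that fit, and 2 synthetases rose. Without HFD library 1, 2 delivery genes rose and 2 fell with fenofibrate against HFD, 1 rose and 2 fell in HFD against Control, and 2 synthetases rose in HFD against Control; the calls of Vldlr, Angptl4 and Acsl5 given here held.

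Of 18 transcription factors of the pathway 2 rose with fenofibrate against HFD, 1 rose and 2 fell in HFD against Control, and 3 rose with fenofibrate against Control (medians 0.22, 0.10 and 0.16). Ppara itself had 50.1 ± 6.21 CPM with fenofibrate, 57.2 ± 9.32 CPM in HFD and 40.9 ± 10.8 CPM in Control (SD, n = 4 each) and passed in no comparison, nor did Pparg or Ppard. Without HFD library 1, Pparg fell by 0.62 with fenofibrate against HFD (adjusted p = 0.0482) and rose by 0.64 in HFD against Control (adjusted p = 0.0319). Of 23 other textbook PPARA targets 21 were tested, and with fenofibrate against HFD 0 rose and 5 fell in edgeR (3 and 12 at an unadjusted p under 0.05), 0 and 9 in DESeq2 and 0 and 5 with limma-voom. The 3 that were higher in edgeR without passing were Cyp4a14 (1.05, adjusted p = 0.0844), Cyp4a10 (0.49, adjusted p = 0.149) and Cpt1a (0.29, adjusted p = 0.116). In HFD against Control 6 of the 21 targets rose, and with fenofibrate against Control 2 rose and 2 fell (medians -0.37, 0.29 and 0.01). Plin2, the lipid droplet coat protein, had 352 ± 42.2 CPM with fenofibrate, 1051 ± 252 CPM in HFD and 859 ± 358 CPM in Control (SD, n = 4 each). It fell with fenofibrate against HFD (-1.58 ± 0.24, adjusted p = 0.00139) and against Control (-1.29 ± 0.24, adjusted p = 0.00339). With the diet it did not pass (0.29 ± 0.23, adjusted p = 0.46). Vnn1, pantetheinase, had 92.4 ± 26.3 CPM with fenofibrate, 185 ± 49.5 CPM in HFD and 33.9 ± 13.4 CPM in Control (SD, n = 4 each). Fabp1, Cd36 and Slc27a1 are also known as PPARA targets, and against HFD Fabp1 fell while Cd36 and Slc27a1 rose. Without fenofibrate libraries 1 and 3, edgeR called 0 rises and 1 fall among the 21 targets against HFD (1 and 9 unadjusted), and 0 transcription factors in either direction (4 rises and 0 falls unadjusted). Against Control, 1 target rose and 2 fell in that fit, and 2 transcription factors rose. Without HFD library 1, 3 targets fell with fenofibrate against HFD and 4 rose in HFD against Control, while 1 transcription factor rose and 1 fell in each of these comparisons.

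**Figure D5:**
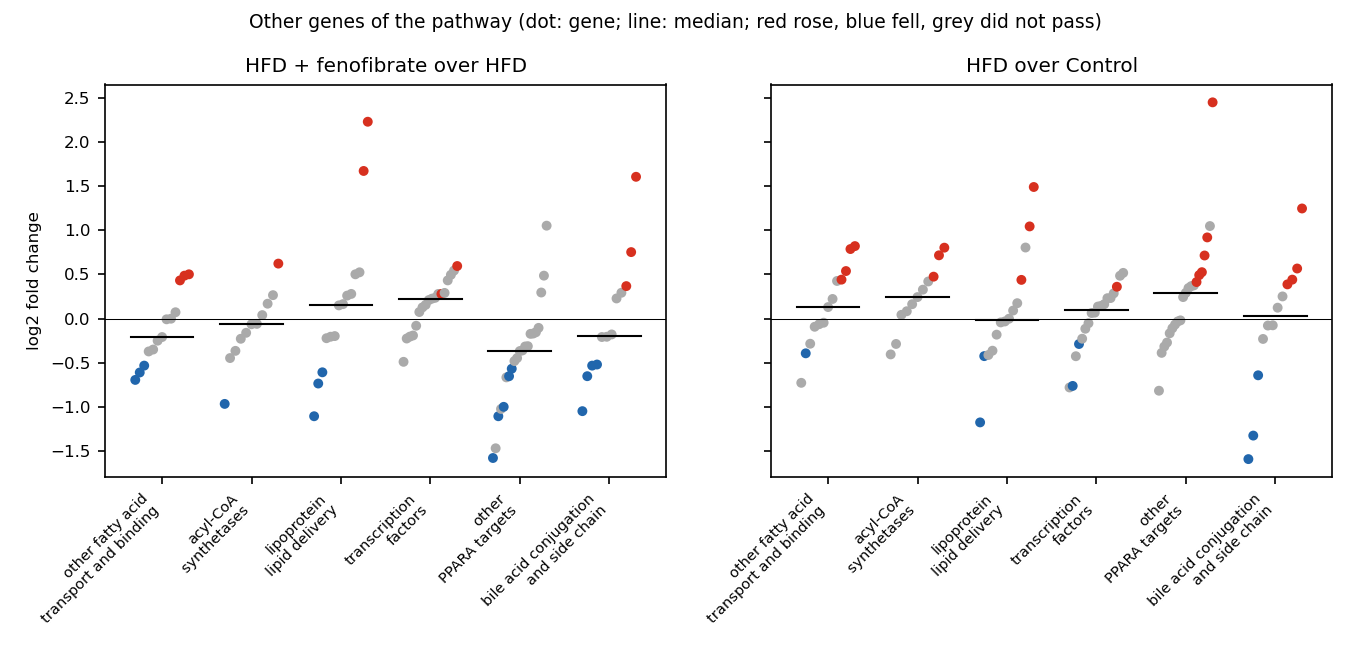
Log2 fold change of every tested gene of the 6 further lists with HFD plus fenofibrate over HFD (left) and HFD over Control (right), with a line for the list's median (red rose, blue fell, grey did not pass). Other PPARA targets had 0 rises and 5 falls on the left and 6 rises and 0 falls on the right.

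Bile acid genes were set beside Slc27a5, since SLC27A5 prepares bile acids for conjugation. Of 12 tested of 13, 3 rose and 4 fell with fenofibrate against HFD, 4 rose and 3 fell in HFD against Control, and 2 fell with fenofibrate against Control (medians -0.19, 0.02 and 0.03). Cyp27a1, which opens the side chain pathway, fell with Slc27a5 in both comparisons with Control. It had 679 ± 118 CPM with fenofibrate, 580 ± 20.8 CPM in HFD and 906 ± 41.5 CPM in Control (SD, n = 4 each). Its changes were -0.64 ± 0.11 in HFD against Control (adjusted p = 0.00185) and -0.42 ± 0.11 with fenofibrate against Control (adjusted p = 0.0332). Cyp7a1, whose enzyme sets the rate at which cholesterol is turned into bile acids, had 123 ± 46.9 CPM with fenofibrate, 40.3 ± 21.7 CPM in HFD and 122 ± 71.1 CPM in Control (SD, n = 4 each), and rose by 1.60 against HFD (adjusted p = 0.018). Without fenofibrate libraries 1 and 3, 1 gene of this list rose against HFD, and edgeR called 0 in either direction against Control (0 rises and 1 fall unadjusted), where Cyp27a1 had -0.24 (adjusted p = 0.366). Without HFD library 1, edgeR called 0 rises (4 unadjusted) and 2 falls with fenofibrate against HFD, where Cyp7a1 had 1.57 (adjusted p = 0.0538), and 2 rises and 3 falls in HFD against Control.

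The genes most alike to 4 members across the 12 libraries were found as the root mean square difference of standardised log2 levels, over genes of at least 10 CPM. For Cd36 they were Tmem143 (0.300), Car5a, a mitochondrial carbonic anhydrase (0.310), and Cyp2b9, a cytochrome P450 (0.313), where the median over 7124 genes was 1.39. For Slc27a1 they were Acsf3, a mitochondrial acyl-CoA synthetase (0.272), Got2 (0.310) and Cox15, needed for heme A synthesis (0.311). For Fabp1 they were Cd81, a tetraspanin (0.208), Decr1, an enzyme of unsaturated fatty acid oxidation (0.246), and Bbox1, of carnitine synthesis (0.263). Fabp4 had no close neighbour, its nearest being Srsf3, a splicing factor, at 0.509. Of these genes only Acsf3 and Got2 were in the lists above, and Cyp2b9 had 103 ± 28.5 CPM with fenofibrate, 13.6 ± 15.7 CPM in HFD and 0.200 ± 0.200 CPM in Control (SD, n = 4 each).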

How the data were processed

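Each of 2 deposited tables holds raw read counts by gene for 8 libraries, per the file headers; HFD libraries are in both. The submitters' processing notes list HTSeq 0.6.0, HISAT2 2.0.5 and StringTie 1.3.2d without settings, and no label states the annotation release or strand setting. In the same tables, the deposited log2 fold change, fold (a ratio) and p-value columns are the authors' own comparison. Tables were joined by identifier, with counts of 0 where a table lacked a gene. The labels name mm8 and mm9, but 92.5% of shared identifiers have their GENCODE M21 (GRCm38) position.

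Genes passing filterByExpr were tested with edgeR 4.0.16 (TMM, 1 coefficient per group over 12 libraries, prior count 0.125) in R 4.3.3. Alternatives were DESeq2 1.42.0, limma-voom (3.58.1), other scaling and filters, fewer libraries and a replicate block. RPKM used the longest coding transcript of M21. Marker sums were compared by two-sided exact permutation of 4 against 4 libraries, whose smallest p is 0.0286. Replicate pairs differed by a chi-square per gene of 15.1 to 42.2, so none was a duplicate. Steps were tested on simulated counts. Members and lists were chosen with earlier results of these data known. The text names all 9 members, up to 4 passing genes of each list, and the 3 genes most alike to 4 members. Ppara, Pparg, Ppard, Fabp3, Cyp4a14, Cyp4a10, Cpt1a and single markers were added after their values were seen.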

Additional observations from a re-analysis of the deposited data

Results flagged for a closer look

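Among 27 groups of member levels and 36 groups of marker sums, a library far from the other 3 of its group was found in 2 and 4 cases; chance alone gives about 1 in 20 groups. Slc27a4 had 29.8 CPM in HFD library 1, against 34.1 to 34.9 CPM in the other HFD libraries. The same library had the low endothelial marker sum of 223 CPM, against 411 to 434 CPM in the other HFD libraries, and a low Cd36 level; the part of the marker sum in these levels was not tested. Fabp4 had 6.60 CPM in Control library 1, against 9.76 to 9.83 CPM in the other Control libraries. The acinar markers of the pancreas reached 2183 CPM in fenofibrate library 1 and 9.13 to 14.0 CPM in the rest of that group. The enterocyte sum was 59.8 CPM in fenofibrate library 1 and 32.3 CPM in Control library 3, against at most 0.356 and 0.669 CPM in the others of each group.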

How the results depend on the processing

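Of 540 values of members under 20 alternatives, 481 kept their direction and side of the threshold, 49 lost the call, 10 gained it and 0 reversed. Calls held in all 20 for Slc27a1 with fenofibrate in both comparisons, Fabp1 against HFD and with the diet, Cd36 against Control in both comparisons, and Fabp2 with the diet. Without fenofibrate libraries 1 and 3, 55 genes rose and 69 fell against HFD (928 and 888 with all), 215 rose and 158 fell against Control (655 and 581), and 1 and 2 members rose; that fit has fewer samples. With fenofibrate against HFD, 3 members fell without the filter and 3 in DESeq2. The shares of all genes that passed without the filter, in DESeq2, with RLE scaling or with the replicate block are not given beside these counts. In HFD against Control no member fell with RLE scaling, without the filter or with the replicate block (0 each, Slc27a5 having adjusted p of 0.0527, 0.127 and 0.0636), and 3 rose with the block; it ended no other call of a member but that of Slc27a4 with fenofibrate against Control (0.0698), those of Slc27a2 (0.0713) and Fabp5 (0.0683) with the diet being the 2 rises lost. Same-numbered libraries had r of -0.35 to 0.30 over 12 pairs, 4 of them over 0.1, so the numbers were not taken as pairs. Leaving out each library in turn gave 282 to 1210 rises and 328 to 1206 falls with fenofibrate against HFD, with 1 to 2 and 1 to 3 members; 550 to 832 and 554 to 930 in HFD against Control, with 3 to 5 and 0 to 1 members; and 383 to 858 and 310 to 852 with fenofibrate against Control, with 2 to 4 and 1 to 2 members. Promoter matches numbered 1 member and 182 windows at up to 1 mismatch, and 4 members and 8097 windows at up to 3; the causes of these differences were not tested. Other scaling moved the median of all genes by at most 0.015. The fewest reads of a member in a library were 58, of Fabp5 in Control library 1. Lists without HFD library 1 were counted after seeing the data.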

Other observations

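The balance of the liver-type transport genes can be read within a library, free of scaling, and was chosen after its values were seen. Reads of Slc27a2 over reads of Slc27a5 were 1.29 ± 0.176 with fenofibrate, 1.38 ± 0.0757 in HFD and 0.841 ± 0.0791 in Control (SD, n = 4 each). All 8 high-fat libraries had a ratio of at least 1.16 and all 4 Control libraries of at most 0.950 (two-sided exact permutation p = 0.0286 for each high-fat group against Control, the smallest that 4 against 4 allow, 0.039 after Benjamini-Hochberg adjustment over 15 tests). The same exact permutation test of fenofibrate against HFD gave p = 0.371 (0.428 adjusted). The genes most alike to Fabp5 were Tlcd1, Acss2, a cytosolic acetyl-CoA synthetase, and Erg28, a gene of sterol synthesis, at 0.285, 0.340 and 0.411; Fabp5 was added to that search after its values were seen.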
